A study of Homo sapiens with 6 samples.

Results

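The genes described here are 9 secreted inflammatory factors and NFKBIA, the inhibitor that holds the transcription factor NF-kB in the cytoplasm. The secreted factors are the chemokines CXCL8, CXCL1, CXCL2 and CCL2, and the cytokines IL24, IL6, LIF, IL1A and IL1B. They were taken by name, with earlier results of these data known. The array carried 1 probe set for each of the 10, out of 18372 genes with a probe set of a single gene symbol. A375, an established human melanoma cell line, was transfected with siRNA and profiled after 72 h. The control siRNA group (3 arrays) received negative control siRNA, and the siFAH group (3 arrays) received siRNA against FAH, the last enzyme of tyrosine breakdown. The replicates are described as biological. The labels do not say which of the FAH siRNAs of the study was used. The arrays hold a single siFAH group, so silencing of FAH and other effects of its siRNA cannot be told apart here. All 6 arrays come from 1 cell line after transient transfection, and the labels name no genotype or drug treatment besides.

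Melanoma cells often secrete chemokines and cytokines in the absence of immune cells, and CXCL8 and CXCL1 are known as growth and motility factors of melanoma. Many of these genes are switched on by NF-kB. In resting cells IkB proteins such as NFKBIA keep NF-kB out of the nucleus. Kinases that act downstream of interleukin-1 or tumor necrosis factor mark the IkB protein for destruction, NF-kB enters the nucleus and binds short DNA sites, and NFKBIA, itself a target, is made again and closes the loop. AP-1 and C/EBP factors act at many of the same promoters, and many of the mRNAs are short-lived because of AU-rich elements. Signals of the arrays are given as log2 RMA values, so a difference of 1 is a 2-fold change. Signals of different probe sets do not rank the amounts of their mRNAs.

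The promoter sequences of 8 of the 10 genes were at hand from RefSeq (GRCh38.p14, 250 bases before to 50 after the transcription start). The letters GGANNTTCC, a short form of the NF-kB site searched on both strands, occurred in 5 of these 8 promoters: CXCL8, CXCL1, CXCL2, IL6 and NFKBIA. Over the promoters of 14207 tested genes, 650 (4.58%) held them. The 59 bases around the match nearest the start are shown for these 5 genes, since they are a feature that these genes share whichever way they moved. The match is in capitals, and each run is read 5′ to 3′ on the strand of the gene. The windows lie at chr4:73740453-73740511 (plus strand) for CXCL8, chr4:73869290-73869348 (plus) for CXCL1, chr4:74099239-74099297 (minus) for CXCL2, chr7:22727103-22727161 (plus) for IL6 and chr14:35404797-35404855 (minus) for NFKBIA.
CXCL8: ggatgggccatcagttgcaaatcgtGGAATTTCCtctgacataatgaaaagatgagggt
CXCL1: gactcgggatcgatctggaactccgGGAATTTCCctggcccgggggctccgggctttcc
CXCL2: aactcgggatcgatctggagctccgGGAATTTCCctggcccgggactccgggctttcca
IL6: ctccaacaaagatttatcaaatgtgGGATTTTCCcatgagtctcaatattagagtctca
NFKBIA: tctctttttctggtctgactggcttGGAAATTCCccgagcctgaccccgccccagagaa

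The 9 letters of the match were identical in the 3 CXC chemokine promoters and began 91 bases before the start in CXCL8, 78 in CXCL1 and 77 in CXCL2. The matches of IL6 and NFKBIA began 72 and 81 bases before their starts, and NFKBIA held another 242 bases before its start. Over the whole window CXCL1 and CXCL2 were alike, with 48 of 59 letters the same at the same position, against 12 to 24 of 59 for the other pairs. The promoter of IL24 held no match to these letters. It is shown for the 59 bases at chr1:206897335-206897393 (plus strand) because IL24 had the largest change of the 10 genes. The capitals mark GAAA followed after any 2 bases by another GAAA, read on the other strand, the core letters of an interferon response element, 1 of 7 motifs searched. They occurred in 1 of the 8 promoters, that of IL24, against 3.03% of all promoters.
IL24: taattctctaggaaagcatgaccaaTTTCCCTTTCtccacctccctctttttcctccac

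A match to letters is a description and does not say that a factor was bound in these cells. The letters of an AP-1 site, TGANTCA, occurred in CXCL8 and IL1A, against 5.59% of promoters. The letters of a C/EBP site, TTNNGNAA, occurred in 5 of the 8 against 29.8%, and those of a STAT site, TTCNNNGAA, in IL1B alone of the 8 against 7.04%. TATAAA occurred in CXCL8, IL1A and NFKBIA, 3 of the 8, against 8.97% of promoters, and the letters TGACGTCA of a CRE in 0 of the 8 against 2.65%. All were searched on both strands, and no match in the 8 promoters overlapped another. The promoters of CCL2 and LIF were not analysed here.

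FAH itself was at 5.48, 5.59 and 5.68 on control arrays and at 4.92, 4.60 and 4.92 on siFAH arrays. Every siFAH array lay below every control array, and the log2 fold change was -0.77 (standard error, SE, 0.10; adjusted p = 0.00213), 1.70-fold lower. Array medians ran from 4.92 to 5.04, and within a group the correlation between arrays over probe sets was 0.995 to 0.997. The tests used limma over all 18372 genes, and a gene was called changed at an adjusted p under 0.05. With 3 arrays against 3, an exact permutation test of a single gene cannot give a p under 0.1.

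The 10 genes did not move one way. IL24, LIF and CXCL8 were lower after FAH silencing, CCL2 and NFKBIA were higher, and CXCL1, CXCL2, IL6, IL1A and IL1B were not called. Over all genes tested 9.86% were called, 3.48% higher and 6.38% lower. The 2 groups did not overlap for 6 of the 10 genes (4 with every siFAH array below, 2 with every siFAH array above), where 32% of all genes did not overlap. The median change of the 10 was -0.11 on the log2 scale, against 0.0050 over all genes. In bulk RNA, fewer cells making a factor and less RNA per cell cannot be told apart.

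**Figure D1:**
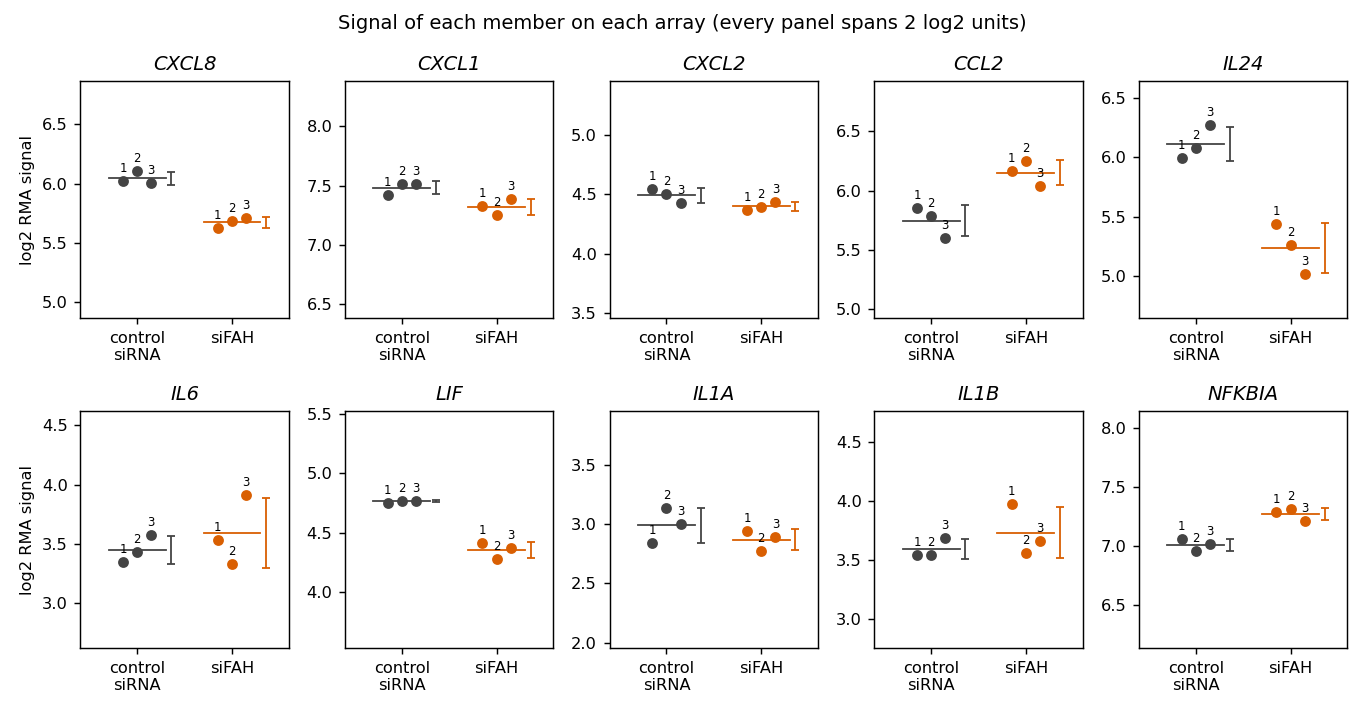
Signal of each of the 10 genes on each array (log2 RMA signal), with control siRNA in gray and siFAH in orange. Numbers are replicates, horizontal lines are group means, bars are ± 1 SD (n = 3), and every panel spans 2 log2 units. The 2 groups are apart for IL24, LIF, CXCL8, CXCL1, CCL2 and NFKBIA and overlap for CXCL2, IL6, IL1A and IL1B.

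The CXC chemokines with an ELR motif, CXCL8, CXCL1 and CXCL2, draw neutrophils through the receptors CXCR1 and CXCR2. CXCL8 was at 6.022, 6.108 and 6.002 on control arrays and at 5.622, 5.685 and 5.712 on siFAH arrays. All 3 siFAH arrays lay below the lowest control array, by more than the spread within either group. The group means were 6.04 ± 0.056 and 5.67 ± 0.046 (SD, n = 3), a log2 fold change of -0.37 (SE 0.07, 95% interval -0.52 to -0.22, adjusted p = 0.00967), 1.29-fold lower.

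CXCL1 was at 7.42, 7.51 and 7.51 on control arrays and at 7.33, 7.25 and 7.38 on siFAH arrays. The siFAH arrays were all below the control arrays, but the gap from the highest siFAH array to the lowest control array was small beside the spread. Its log2 fold change was -0.16 (95% interval -0.31 to -0.0082), which did not pass the adjusted test (adjusted p = 0.170). Genes of like brightness, within 0.25 of its mean signal, had a median change of -0.09, and the change of CXCL1 was -0.08 after quantile normalization and -0.07 after cyclic loess. CXCL2 was at 4.55, 4.50 and 4.42 on control arrays and at 4.36, 4.39 and 4.44 on siFAH arrays. The highest siFAH array of CXCL2 lay within the control range, and its log2 fold change was -0.09 (95% interval -0.24 to 0.06, adjusted p = 0.420). The signal of CXCL2 was weak, with a mean of 4.44 over all arrays, so a change may have been missed. CXCL1, CXCL2 and their neighbor CXCL3 are close paralogs, and cross-hybridization between their probe sets was not tested.

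The change of CXCL8 minus that of CXCL1 was -0.21 on the log2 scale, and minus that of CXCL2 it was -0.28. These pairs and 1 more given below, 3 pairs in all, were chosen after the values were seen, and each had an exact two-sided permutation p of 0.1 (0.1 after adjustment over the 3 pairs), the smallest that 3 arrays against 3 allow.

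CCL2, also called MCP-1, draws monocytes through the receptor CCR2. It was at 5.85, 5.79 and 5.60 on control arrays and at 6.16, 6.25 and 6.04 on siFAH arrays. Every siFAH array lay above every control array, and control replicate 3 and siFAH replicate 3 were the lowest of their groups. The means were 5.75 ± 0.13 and 6.15 ± 0.10 (SD, n = 3), a log2 fold change of 0.40 (SE 0.09, 95% interval 0.21 to 0.59, adjusted p = 0.0181), 1.32-fold higher. The call was lost, with an adjusted p up to 0.0719, when control replicate 2, control replicate 3 or siFAH replicate 2 was left out.

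IL24, also named melanoma differentiation-associated gene 7, is a cytokine of the IL-10 family that signals through receptors of IL20RA or IL22RA1 with IL20RB, and it is known for killing of tumor cells when overexpressed. It was at 5.99, 6.08 and 6.27 on control arrays and at 5.44, 5.26 and 5.02 on siFAH arrays. The lowest control array was above the highest siFAH array by more than the SD of either group. The means were 6.12 ± 0.14 and 5.24 ± 0.21 (SD, n = 3), a log2 fold change of -0.88 (SE 0.11, 95% interval -1.12 to -0.63, adjusted p = 0.00198), 1.84-fold lower. This was the 13th lowest change among the 18372 genes. In each fit that left out 1 array IL24 remained called, with log2 fold changes from -0.98 to -0.77.

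IL6 and LIF signal through the shared receptor subunit gp130, encoded by IL6ST, and LIF is a stem cell and cachexia factor. LIF was at 4.75, 4.77 and 4.77 on control arrays and at 4.41, 4.28 and 4.37 on siFAH arrays. The control arrays were almost equal and all siFAH arrays lay below them, with means of 4.76 ± 0.0084 and 4.35 ± 0.068 (SD, n = 3). The log2 fold change was -0.41 (SE 0.07, 95% interval -0.56 to -0.26, adjusted p = 0.00576). LIF gave a weak signal, with a mean of 4.56 over all arrays. Its control mean was above, and its siFAH mean was below, 4.40, the 95th percentile of the mean signals of 359 olfactory receptor genes, which melanoma cells have little reason to transcribe. Genes whose mean over all 6 arrays is under this level are called dim. LIF was over it only through its control arrays, so the true fold may be larger than the measured one.

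IL6, a driver of the acute phase response, was at 3.34, 3.43 and 3.58 on control arrays and at 3.53, 3.33 and 3.91 on siFAH arrays. The groups overlapped, with a log2 fold change of 0.14 (95% interval -0.15 to 0.43, adjusted p = 0.535) that turned to -0.022 without siFAH replicate 3. IL1A, an alarm signal released by damaged cells, was at 2.836, 3.133 and 2.998 on control arrays and at 2.940, 2.768 and 2.891 on siFAH arrays, a log2 fold change of -0.12 (95% interval -0.32 to 0.07, adjusted p = 0.410). IL1B, which is secreted after cleavage by the inflammasome, was at 3.54, 3.54 and 3.69 on control arrays and at 3.97, 3.56 and 3.66 on siFAH arrays, a log2 fold change of 0.14 (95% interval -0.09 to 0.37, adjusted p = 0.424). These 3 cytokines were the only ones of the 10 genes whose mean signal lay under 4.40, and their groups overlapped on the arrays. Among all genes under that level 2.63% of 5284 were called, against 12.8% of the 13088 at or above it. Of the 7 other genes 5 were called, LIF among them with its siFAH mean under 4.40. The uncalled CXCL2 was barely over that level, with a mean of 4.44 and siFAH replicates 1 and 2 under it at 4.36 and 4.39. The 10 genes were chosen with earlier results of these data known, so their count cannot be weighed against these shares. At signals under 4.40 a change of a scarce mRNA may not be detectable.

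NFKBIA was at 7.06, 6.96 and 7.01 on control arrays and at 7.29, 7.31 and 7.21 on siFAH arrays. Every siFAH array lay above every control array, with a gap larger than the SD of either group. The means were 7.01 ± 0.052 and 7.27 ± 0.052 (SD, n = 3), a log2 fold change of 0.26 (SE 0.07, 95% interval 0.11 to 0.41, adjusted p = 0.0372), 1.198-fold higher. Genes of like brightness had a median change of -0.09, and the change of NFKBIA was 0.34 after quantile normalization and 0.35 after cyclic loess. Its call was lost in 5 of the 6 fits that left out 1 array, with an adjusted p up to 0.126, and was kept without control replicate 1 (adjusted p = 0.0454). Of the 5 genes whose promoters held the NF-kB letters shown above, CXCL8 was lower, NFKBIA was higher, and CXCL1, CXCL2 and IL6 were not called.

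**Figure D2:**
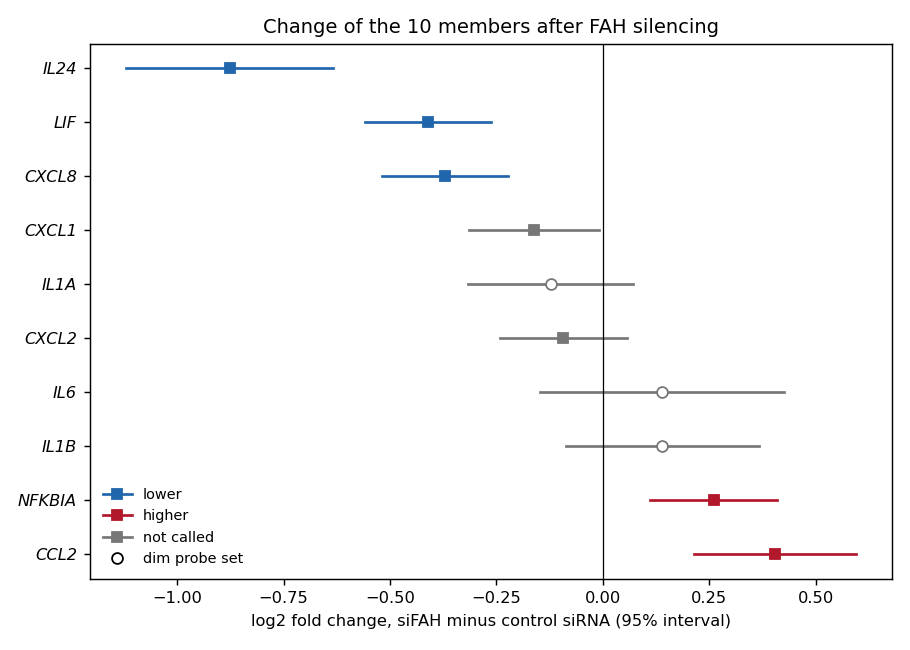
Log2 fold change of the 10 genes, siFAH minus control siRNA, with 95% intervals from limma. Blue is lower, red is higher and gray is not called, and open circles mark IL6, IL1A and IL1B, whose mean signal lay under the olfactory receptor reference. IL24 at -0.88 lies farthest from 0, and CCL2 at 0.40 is the highest.

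The 5 calls differed in how much they leaned on single arrays. IL24, LIF and CXCL8 passed in all 6 fits that left out 1 array, with adjusted p from 0.00111 to 0.0116 for IL24, from 0.00962 to 0.0314 for LIF and from 0.0182 to 0.0483 for CXCL8. CCL2 passed in 3 of 6 and NFKBIA in 1 of 6. No array was low throughout: control replicate 1 was the lowest control array for 6 of the 10 genes and the highest for 3, and siFAH replicate 2 was the lowest siFAH array for 5 and the highest for 2.

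**Figure D3:**
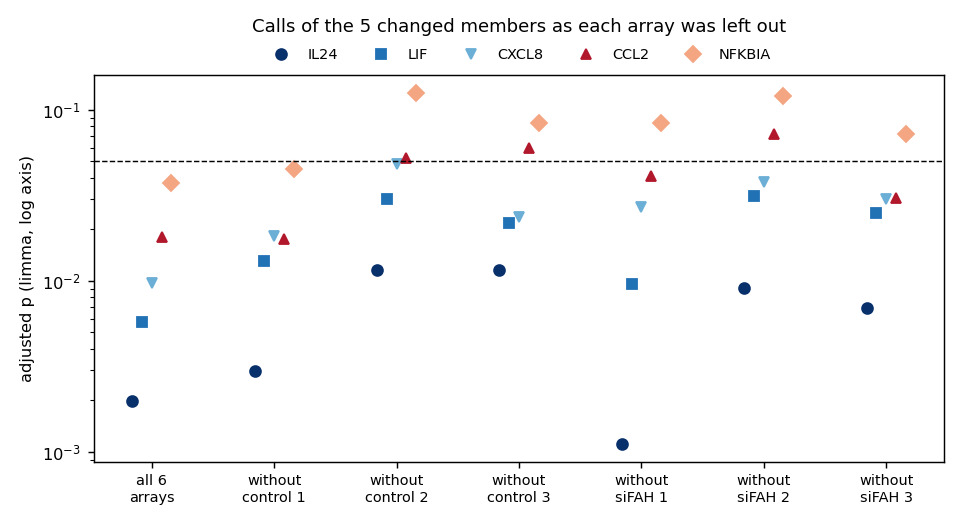
Adjusted p (limma, log axis) of the 5 called genes with all 6 arrays and with each array left out; the dashed line is 0.05. IL24, LIF and CXCL8 stay under the line throughout, CCL2 crosses it in 3 fits and NFKBIA in 5.

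Several of these genes sit in clusters of related genes that arose by duplication, and their neighbors were read in the RefSeq gene order, a comparison chosen after the values were seen. In the CXC cluster on chromosome 4, CXCL8 was the only 1 of 9 genes called, against 9.86% over all genes tested. Its neighbor CXCL6 had 0.14, PF4V1 0.03, PF4 -0.009, PPBP 0.35, CXCL5 0.10 and CXCL3 0.09 on the log2 scale, none past the test. Of these CXCL6, PF4V1, PF4, PPBP and CXCL5 were dim, and 2.63% of all dim genes were called. CXCL2 and CXCL3 were little above the olfactory receptor reference, with mean signals of 4.44 and 4.56. In the IL-10 family cluster on chromosome 1, IL24 was lower while the adjacent IL20, which shares receptors with it, was higher at 0.30 (adjusted p = 0.0330). IL20 is dim: it was at 3.54, 3.48 and 3.36 on control arrays and at 3.78, 3.68 and 3.81 on siFAH arrays, all below the olfactory receptor reference, and its call held in 1 of the 6 fits that left out 1 array. The changes of IL24 and IL20 differed by -1.17, with the exact permutation p of 0.1 that is the smallest possible. Since the 2 groups lay apart in opposite directions for these genes, that p was fixed beforehand and adds no support. IL10 and IL19, the other two genes there, had 0.0050 and 0.0076.

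In the CC cluster on chromosome 17, 5 of 6 genes were measured. CCL2 was called, and CCL7 (0.21, adjusted p = 0.0733), CCL11 (0.21, adjusted p = 0.253), CCL8 (0.31, adjusted p = 0.129) and CCL1 (0.03, adjusted p = 0.870) were not, each with a mean signal under the olfactory receptor reference. CCL13 was not analysed here. In the IL-1 family cluster on chromosome 2, neither IL1A nor IL1B was called. The 1 called gene of 9 was IL37, an inhibitory member of the family, at 0.30 (adjusted p = 0.0437) with a dim mean of 3.18. The IL37 call was not followed through the fits that left out 1 array. For both clusters the shares to compare are 9.86% called of all genes tested and 2.63% of dim genes. IL1RN, the natural blocker of the interleukin-1 receptor, had 0.02 (adjusted p = 0.890).

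**Figure D4:**
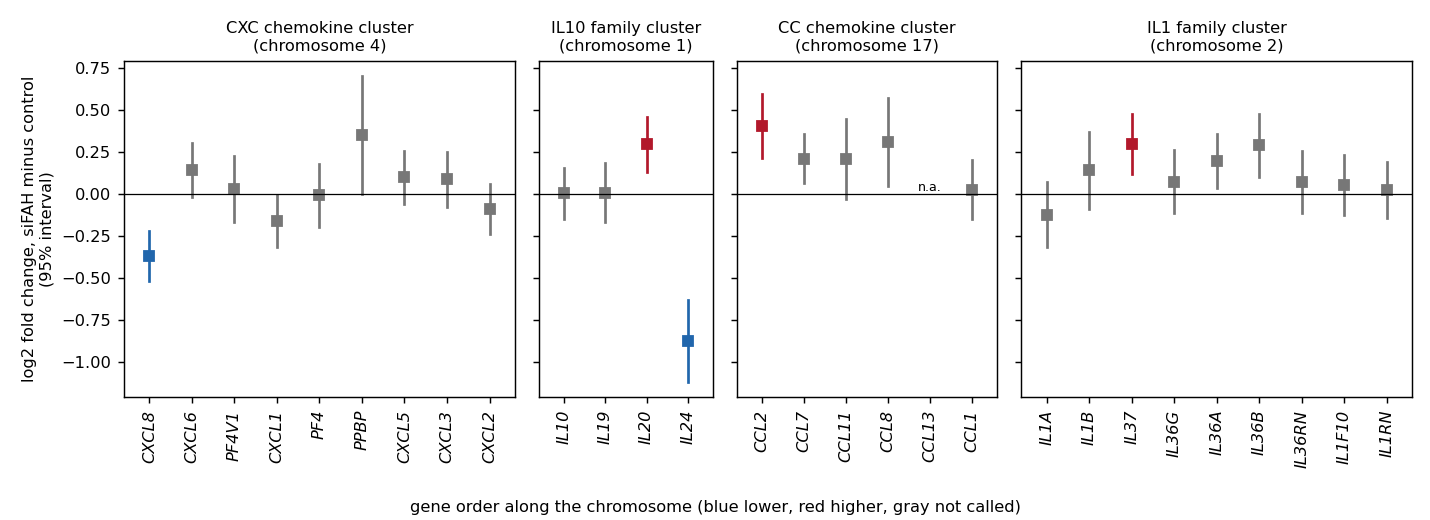
Log2 fold change, siFAH minus control siRNA, of the genes of 4 clusters in their chromosomal order, with 95% intervals from limma. Blue is lower, red is higher, gray is not called, and n.a. marks CCL13, not analysed here. In the CXC cluster CXCL8 (-0.37) is lowest, is the called gene and has an interval that overlaps that of CXCL1, and PPBP (0.35) is highest. IL24 (-0.88) and IL20 (0.30) lie on opposite sides of 0.

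Of 24 other CXC, CC and CX3C chemokines measured, limma called none, and 15 were dim. The share called was 9.86% of all genes tested and 2.63% of dim genes. At an unadjusted p under 0.05 limma had 3 higher and 1 lower, and SAM had 1 higher at 1.2-fold and p under 0.05, while the methods' t-test had none at the same limits. The uncalled genes with the largest changes were CCL4 (0.38, adjusted p = 0.260), PPBP (0.35, adjusted p = 0.193) and CCL8 (0.31). The median change of the 24 chemokines was 0.10, and 0.07 to 0.08 after quantile normalization or cyclic loess. Genes of like brightness to the dim IL6, IL1A and IL1B had a median change of 0.05 in each case. Of 23 other interleukins and cytokines, IL20 alone was called, with a median of 0.03 over the list. LTB (0.21, adjusted p = 0.135), IL16 (0.20, adjusted p = 0.101) and CSF3 (0.14, adjusted p = 0.256) were the uncalled ones that changed most.

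Among 14 receptors of the factors 1 was called, against 9.86% over all genes tested. IL1RAP, the co-receptor without which interleukin-1 does not signal, was at 6.79, 6.64 and 6.88 on control arrays and at 6.13, 6.07 and 6.11 on siFAH arrays. The siFAH arrays lay close together and well below the control arrays, with a log2 fold change of -0.67 (SE 0.08, adjusted p = 0.00144) that passed in all 6 fits leaving out 1 array. IL1R1, the ligand-binding chain, was dim and not called (0.34, adjusted p = 0.0725). IL6ST, the gp130 chain through which IL6 and LIF signal, stood at the edge of the test with -0.27 (adjusted p = 0.0501), its siFAH arrays at 7.78, 7.91 and 7.73 below control arrays at 8.03, 8.02 and 8.18. CCR2, the receptor of CCL2, had -0.26 (adjusted p = 0.220) at a dim signal.

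Of 16 measured NF-kB subunits, IkB proteins and kinases, 2 were lower and the other 14 were not called. Among all genes at or above the olfactory receptor reference, 12.8% were called, so this count was near that share. NFKB1, which encodes the p105 precursor of the p50 subunit, was at 7.10, 7.14 and 7.29 on control arrays and at 6.66, 6.76 and 6.78 on siFAH arrays. The groups were well apart, with a log2 fold change of -0.44 (SE 0.07, adjusted p = 0.00660). TAB3, an adaptor of the kinase TAK1, had -0.40 (SE 0.08, adjusted p = 0.0126). Both passed in all 6 fits that left out 1 array. CHUK, the IKK-alpha kinase, had -0.27 (adjusted p = 0.100), TAB2 -0.26 (adjusted p = 0.139) and NFKB2, the p100 precursor, -0.24 (adjusted p = 0.0647). The list's median change was -0.13, and -0.10 after quantile normalization or cyclic loess, in genes that were all over the olfactory receptor reference. Between the 2 groups NFKBIA was higher and NFKB1 lower after FAH silencing. The call of NFKBIA held in 1 of the 6 fits that left out 1 array.

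Of 18 other feedback and target genes of NF-kB, 2 were higher and none was lower. The shares over all genes tested were 3.48% higher and 6.38% lower. PTGS2, the inducible cyclooxygenase, had 0.47 (SE 0.09, adjusted p = 0.0122) from dim signals of 3.15, 3.25 and 3.23 on control arrays and of 3.84, 3.73 and 3.48 on siFAH arrays. SOD2, the mitochondrial superoxide dismutase, had 0.26 (SE 0.06, adjusted p = 0.0291), a call lost in each of the 6 fits that left out 1 array. TNFAIP3, the A20 protein that shuts down the pathway, had -0.23 (adjusted p = 0.0865), TNFAIP6 -0.23 (adjusted p = 0.0631) and ICAM1, an adhesion molecule, -0.17 (adjusted p = 0.249). The list's median was -0.04, and after quantile normalization or cyclic loess 1 gene of the list was called lower.

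Of 13 interleukin-1 signal transducers, inflammasome caspases and calpains, 2 were lower and none was higher. Called shares of all genes tested were 6.38% lower and 3.48% higher. CAPN2, the large subunit of a calpain of the kind that matures IL1A, had -0.46 (SE 0.08, adjusted p = 0.00619) and passed in all 6 fits leaving out 1 array. TRAF6, the ubiquitin ligase that passes the interleukin-1 signal on, had -0.31 (SE 0.08, adjusted p = 0.0383) and passed in 1 of 6. IRAK2 (0.29, adjusted p = 0.0501), CASP1 (0.18, adjusted p = 0.289) and TOLLIP (0.17, adjusted p = 0.159) were not called, and the median was 0.03. Of 11 genes of gp130 signal transduction limma called none. There were 2 higher and 2 lower at its unadjusted p under 0.05, and at 1.2-fold and p under 0.05 SAM had 2 higher and the methods' t-test had 1. CISH (0.34, adjusted p = 0.0546), SOCS1 (0.27, adjusted p = 0.0542) and STAT3 (-0.24, adjusted p = 0.163) had the largest changes there, and the median was -0.11, or -0.06 after quantile normalization or cyclic loess.

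The AP-1 and C/EBP factors, which act at the CXCL8 and IL6 promoters, were mixed as well. For comparison, 9.86% of all genes tested were called. Of 13 genes, JUNB (0.25, SE 0.07, adjusted p = 0.0473) and CEBPD (0.29, SE 0.08, adjusted p = 0.0416) were higher, with calls that held in 1 and 0 of the 6 fits that left out 1 array. CEBPG was lower at -0.50 (SE 0.08, adjusted p = 0.00508), and stayed so in all 6. JUN (0.21, adjusted p = 0.128), FOSL1 (-0.16, adjusted p = 0.136) and JUND (0.16, adjusted p = 0.222) were not called. Of 11 factors of AU-rich mRNA stability and the p38 pathway, DUSP10, a phosphatase of p38 and JNK, was lower at -0.51 (SE 0.09, adjusted p = 0.00660). ELAVL1, the stabilizing HuR protein, had -0.28 (adjusted p = 0.0691), and the destabilizing proteins ZFP36L1 and ZFP36L2 had 0.27 (adjusted p = 0.0532) and 0.22 (adjusted p = 0.0649). Of this list 2 genes were called higher after quantile normalization or cyclic loess, and its median of -0.07 turned to 0.02 after cyclic loess.

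**Figure D5:**
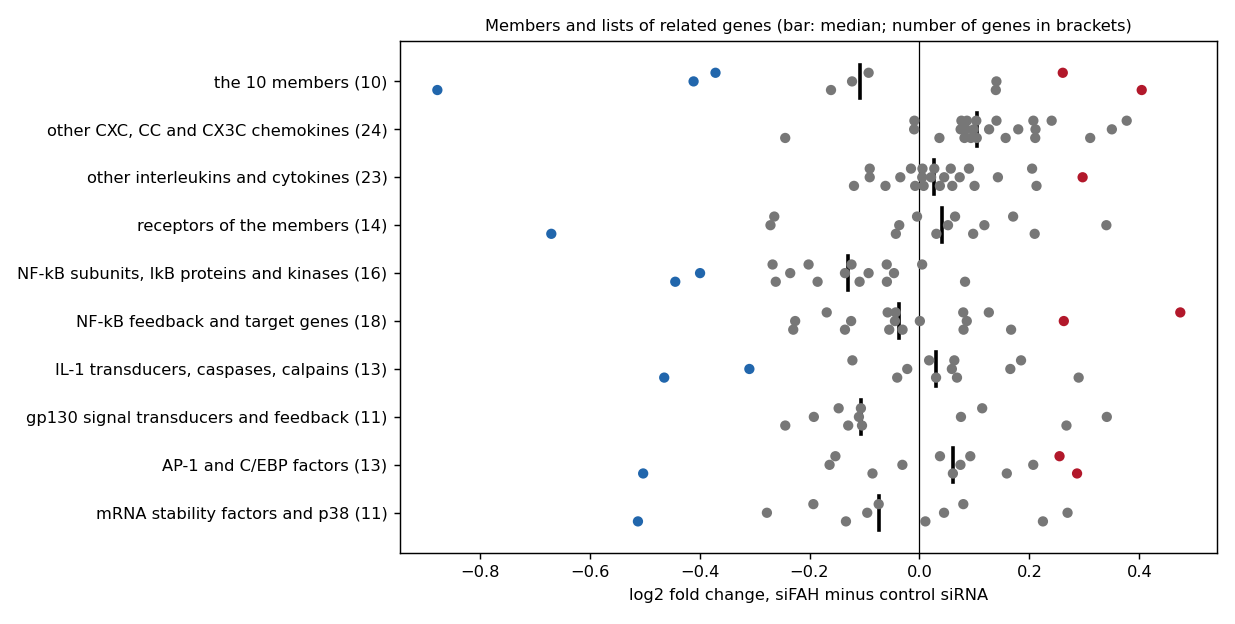
Log2 fold change, siFAH minus control siRNA, of the 10 genes and of each gene of 9 lists of related genes. Each point is a gene (blue lower, red higher, gray not called), black bars are list medians, and the number of genes is in brackets. The 10 genes spread from -0.88 to 0.40, while none of the 24 other chemokines is colored.

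By root mean square distance between profiles centered over the 6 arrays, the genes with at least the median signal that lay nearest to CXCL8 were PYCR1, an enzyme of proline synthesis (distance 0.032), CACYBP and HHEX. Nearest to IL24 were SERPINA3 (0.056), HAPLN1 and CDK2AP1. LSM7, GBP2 and PTMS were nearest to CCL2, SEC61B, UBASH3B and TRPV4 to LIF, and THRA, PCDHB6 and ATP6AP2 to NFKBIA. Likeness over 6 arrays in 2 groups is a description.

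Markers were read to check the cell type. SOX10 (mean signal 8.46), S100B (7.29), MITF (6.58) and VIM (11.4) of the melanoma and neural crest list were well above the olfactory receptor reference, while the pigment genes MLANA (3.03), PMEL (3.88) and TYR (2.93) were under it. Of 11 measured markers AXL alone was called, at -0.55, against 9.86% called over all genes tested. Of 10 leukocyte markers, 6 were under the reference (PTPRC, CD14, CD3E, MS4A1, CD2 and FCGR3A). The 4 over it were CD68 (mean signal 8.09), LYZ (5.79), CSF1R (4.44) and ITGAM (4.400). CD68 was higher at 0.49 and LYZ lower at -0.51, a call lost without control replicate 2 or control replicate 3 (adjusted p up to 0.0646). The mean of the leukocyte list was 4.14 to 4.19 in the control arrays and 4.26 to 4.28 in the siFAH arrays. The corresponding ranges were 4.82 to 4.92 and 4.89 to 4.94 for 7 fibroblast markers, 3.67 to 3.77 and 3.78 to 3.79 for 5 endothelial markers, and 4.09 to 4.26 and 4.20 to 4.40 for 5 keratinocyte markers. In these last lists KRT10 alone was called, at 0.45. That call held in 2 of the 6 fits that left out 1 array (lost without control replicate 2 or 3 or siFAH replicate 2 or 3, adjusted p up to 0.0832). The median change of the leukocyte list was 0.11, and 0.07 after quantile normalization and 0.06 after cyclic loess. In the same order the medians were 0.03, 0.0002 and 0.004 for fibroblast markers and 0.08, 0.02 and 0.03 for endothelial markers. Those of keratinocyte markers were 0.01, -0.04 and -0.04. The sizes of these list shifts, and for keratinocyte markers the direction, thus depended on the scaling. The part of the marker shifts in the changes of the chemokines and cytokines was not tested.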

How the data were processed

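The authors deposited log2 signals of 6 Affymetrix Human Gene 1.0 ST arrays, made by RMA. This method subtracts background, normalizes the arrays together and summarizes each probe set, and the study names global scaling for the normalization. The sources differ on the RNA and labeling kits, and no RMA version is given in the sources used here. Of 28829 probe sets, 19291 carried 1 gene symbol, 1735 several and 7803 none named here. The brightest probe set of each symbol was kept (18372 genes). Groups came from the sample labels. The 2 groups were compared by limma 3.58.1 (lmFit, eBayes; R 4.3.3) with two-sided tests. The Benjamini-Hochberg adjustment ran over every gene in the table. The fit had 4 residual degrees of freedom and took 6.52 more from its prior. The fit was tested on simulated data. Precision is limited by the number of arrays.

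The 10 genes, the lists of related genes and the alternatives were chosen with earlier results of these data known, so no test was adjusted over a list alone. A probe set was called dim where its mean lay under the 95th percentile of 359 olfactory receptor genes (4.40), a reference for brightness. Named genes were FAH, the 10 genes, the called genes of each list with up to 3 uncalled ones of the largest change, and the 3 nearest profiles of each called gene. Neighbors in gene clusters and cell type markers are named besides, the former chosen after their values were seen. List genes with no probe set of a single symbol were not analysed here. Motif letters were counted in RefSeq promoters. The alternatives were quantile normalization, median centring, cyclic loess, leaving out genes under the median signal, trend and robust settings, averaging the probe sets of a symbol, a replicate block, leaving out each array, SAM and the methods' t-test. Python 3.11.15 and matplotlib 3.10.9 drew the figures.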

Additional observations from a re-analysis of the deposited data

How the results depend on the processing

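Over the 10 genes and all alternatives, 147 values kept their direction and side of the threshold, and 17 lost the call with the direction kept. IL6 (0.14) ran from -0.022 without siFAH replicate 3 to 0.27 without siFAH replicate 2. The count was 5 of 10 genes after quantile normalization, median centring, cyclic loess, trend and robust settings and the mean of probe sets. Leaving out each array in turn gave 3 to 5 of the 10, and 657 to 1845 of all genes against 1811. The lower counts came without control replicate 2 (739 genes, 3 of the 10), control replicate 3 (727, 3 of the 10), siFAH replicate 2 (711, 3 of the 10) and siFAH replicate 3 (657, 4 of the 10). Leaving out genes under the median signal of all genes gave 4, with LIF, CXCL2, IL6, IL1A and IL1B not tested. NFKBIA was lost with SAM and with limma or the methods' t-test at 1.2-fold and an unadjusted p under 0.05, since its 1.198-fold change is under that limit. The methods' t-test after Benjamini-Hochberg adjustment called 0 of the 10 and 14 of all genes, against 4 and 1841 at its unadjusted limits. SAM at 1.2-fold and p under 0.05, the rule the study states for its arrays, called 2284 genes and 4 of the 10. The t-test is the one its methods give for mRNA differences between groups. The called genes were 639 higher and 1172 lower, against 746 and 865 after quantile normalization and 771 and 788 after cyclic loess. With the replicate number as a replicate block, 761 genes and 4 of the 10 were called, NFKBIA being lost (adjusted p = 0.102). Arrays with the same number correlated in their deviations at -0.16, -0.09 and -0.27, and arrays with different numbers at -0.09 to 0.24. The labels do not say whether the numbers pair the arrays. With 3 arrays per group these correlations cannot decide it. Arrays give no read depth, and dim signals limit what IL6, IL1A and IL1B can show.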
